A study of Arabidopsis thaliana with 24 samples.

Results

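Between 6 h and 24 h of imbibition, the uptake of water by dry seeds, transcript levels were compared in wild-type Arabidopsis thaliana seeds of the ecotype Col. The groups were Col 24 h and Col 6 h, with 3 libraries each, out of 24 libraries of the series, which also hold Col at 0 and 48 h and the mutant ref6c, in the Col ecotype, at 0, 6, 24 and 48 h. Per the labels, after-ripened seeds, stored dry for months after harvest, were sown on Murashige and Skoog medium under long days, and whole seeds were collected, so that embryo, endosperm and seed coat share a library. The label of each Col library reads wild type, whereas a growth note attached to all samples names a ref6-1;REF6-HA seed line. Nothing in the labels says whether the 3 libraries of a group came from separate seed batches, so p-values here measure only the spread between these libraries. Genes with a TPM (reads per length of gene, scaled to the same total in every library) of 1 or more in at least 3 of the 6 libraries were taken, which gave 16640 of the 23826 genes in the deposited table.

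As background, a dry seed holds stored protein, oil and protective proteins made during maturation, together with stored mRNA. On imbibition the embryo resumes transcription and translation, and the balance of abscisic acid (ABA), which holds germination back, and gibberellin (GA), which promotes it, sets whether the seed proceeds. Loosening of cell walls in the embryo axis and in the endosperm cap lets the radicle emerge, and mobilisation of reserves, cell division and greening follow.

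Recovered depth, the sum of reads obtained as TPM times gene span, lay between 18712950 and 19250051 reads in the 6 libraries. Across genes, which are not independent replicates, levels on log2(TPM + 1) correlated with r of 0.9897 to 0.9952 among the 24 h libraries and 0.9936 to 0.9958 among the 6 h libraries, against 0.8003 to 0.8448 between the times. Of the 16640 genes, 12840 (77.2%) passed limma's test, with p-values adjusted by the Benjamini-Hochberg method and a threshold of 0.05, and are named called genes from here on. Higher at 24 h were 6508 genes (39.1%) and lower were 6332 (38.1%), and a list of genes is to be read against these shares. With a change of at least 2-fold as well, 2949 genes were higher (17.7%) and 1702 lower (10.2%). The median log2 difference of all tested genes was -0.01. The 3 libraries of one time lay all above those of the other for 13451 genes (80.8%). In all, 974 genes passed the filter only through the 24 h libraries and 330 only through the 6 h libraries, and such genes had to differ between the times. A named gene with all 3 libraries of one time under 1 TPM is such a gene, whether or not it is marked below. The 1356 genes that reached 1 TPM in exactly 3 libraries had a mean over the 6 libraries of 1.62 TPM for the median gene, and the 297 that reached it in exactly 2, and so were not taken, one of 0.749 TPM.

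Differences below are Col 24 h minus Col 6 h on log2(TPM + 1), given with their standard error (SE), levels are TPM as mean ± SD of 3 libraries, and "rose" and "fell" are used for genes past the adjusted p of 0.05 from limma. Because the TPM values were divided by the whole gene span, introns included, levels are not compared between genes. Whole seeds were sampled, so fewer cells of a type and less RNA per cell cannot be told apart.

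**Figure D1:**
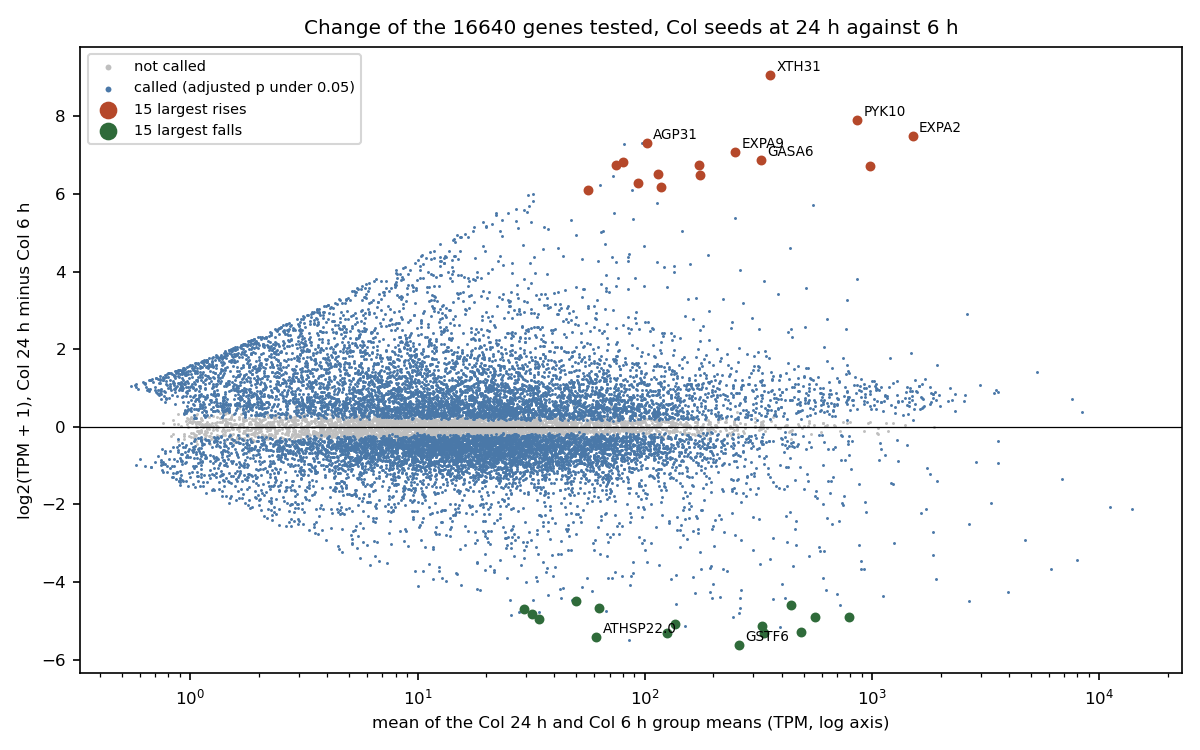
Each of the 16640 points is a gene, by its mean TPM over both times (log axis) and its log2 difference, Col 24 h minus Col 6 h. Blue points were called at an adjusted p under 0.05, red and green points are the 15 largest rises and the 15 largest falls among genes with a symbol, and the rises reach 9.05 while the falls reach -5.62.

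Cell wall genes led the rises. XTH31, a xyloglucan endotransglucosylase/hydrolase of the enzyme family that cuts and rejoins the hemicellulose xyloglucan, lies on chromosome 3 (chr3:16446935-16448844, TAIR10.1) and had 736, 687 and 719 TPM in Col 24 h, against 0.172, 0.405 and 0.483 TPM in Col 6 h. Its 6 h libraries were all under 1 TPM, so it passed only through the 24 h libraries and had to be higher there. It rose by 9.05 ± 0.10 on the log2 scale (adjusted p = 2.32e-26). EXPA2, an alpha-expansin known for its expression in the endosperm of germinating seeds (chr5:1568694-1569915), had 2883, 3003 and 3108 TPM in Col 24 h, against 15.7, 12.01 and 20.1 TPM in Col 6 h. Its groups stood far apart, and it rose by 7.49 ± 0.14 (adjusted p = 2.66e-22). Of the other genes among the 15 largest rises, AGP31, an arabinogalactan protein, ELP, an extensin-like protein, PMEPCRA, a pectin methylesterase, EXPA9 and XTH19 are also wall proteins. AGP31, which passed the filter only through the 24 h libraries, averaged 204 ± 7.94 TPM at 24 h and 0.293 ± 0.111 TPM at 6 h, EXPA9 496 ± 65.2 TPM at 24 h and 2.70 ± 0.597 TPM at 6 h and PMEPCRA 344 ± 79.2 TPM at 24 h and 2.18 ± 0.507 TPM at 6 h. PYK10, the beta-glucosidase of the ER bodies of roots and seedlings, averaged 1716 ± 62.6 TPM at 24 h and 6.23 ± 1.41 TPM at 6 h and rose by 7.91 ± 0.12. CP1, a cysteine protease, had 2339, 1741 and 1717 TPM in Col 24 h, against 19.6, 15.96 and 16.2 TPM in Col 6 h. The remaining ones were GASA6, a GA-regulated peptide, PLAT2, the lectin JAL34, the alpha-tubulin TUA4, the serine carboxypeptidase-like scpl48 and the transporter OCT1, with differences between 6.11 and 6.88. PLAT2 and JAL34 passed the filter only through the 24 h libraries, as XTH31 and AGP31 did.

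The 15 largest falls held stress and seed maturation genes. The glutathione S-transferases GSTF6, GSTF7 and GSTF3, enzymes that conjugate glutathione to toxic compounds, fell by 5.62, 5.31 and 5.29 on the log2 scale. GSTF6 had 8.30, 5.44 and 17.5 TPM in Col 24 h, against 525, 474 and 528 TPM in Col 6 h, with no overlap. These are close paralogs, so the split of reads between them is uncertain. The small heat shock proteins ATHSP22.0 and HSP17.4 and the late embryogenesis abundant (LEA) proteins M10 and ECP31 were among the same 15. So was TPX2, here the thioredoxin-dependent peroxidase AT1G65970, which averaged 16.1 ± 5.01 TPM at 24 h and 655 ± 47.0 TPM at 6 h. WOX2, a homeobox gene known for the patterning of the early embryo, had 2.75, 3.07 and 4.17 TPM in Col 24 h, against 95.5, 107 and 85.9 TPM in Col 6 h. The others were the bHLH gene MEE8, the RING gene ATL15, the ferredoxin FD4, GASA2, the cytochrome P450 CYP71B26 and NSP2, a nitrile specifier protein, with differences between -5.14 and -4.66.

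Gene lists describe the rest by role. Among 42 lists, those with at least 4 members tested are plotted by their median. The place of a short list depends on what was put in it: the 4 GASA peptides listed do not include GASA2, one of the 15 largest falls.

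**Figure D2:**
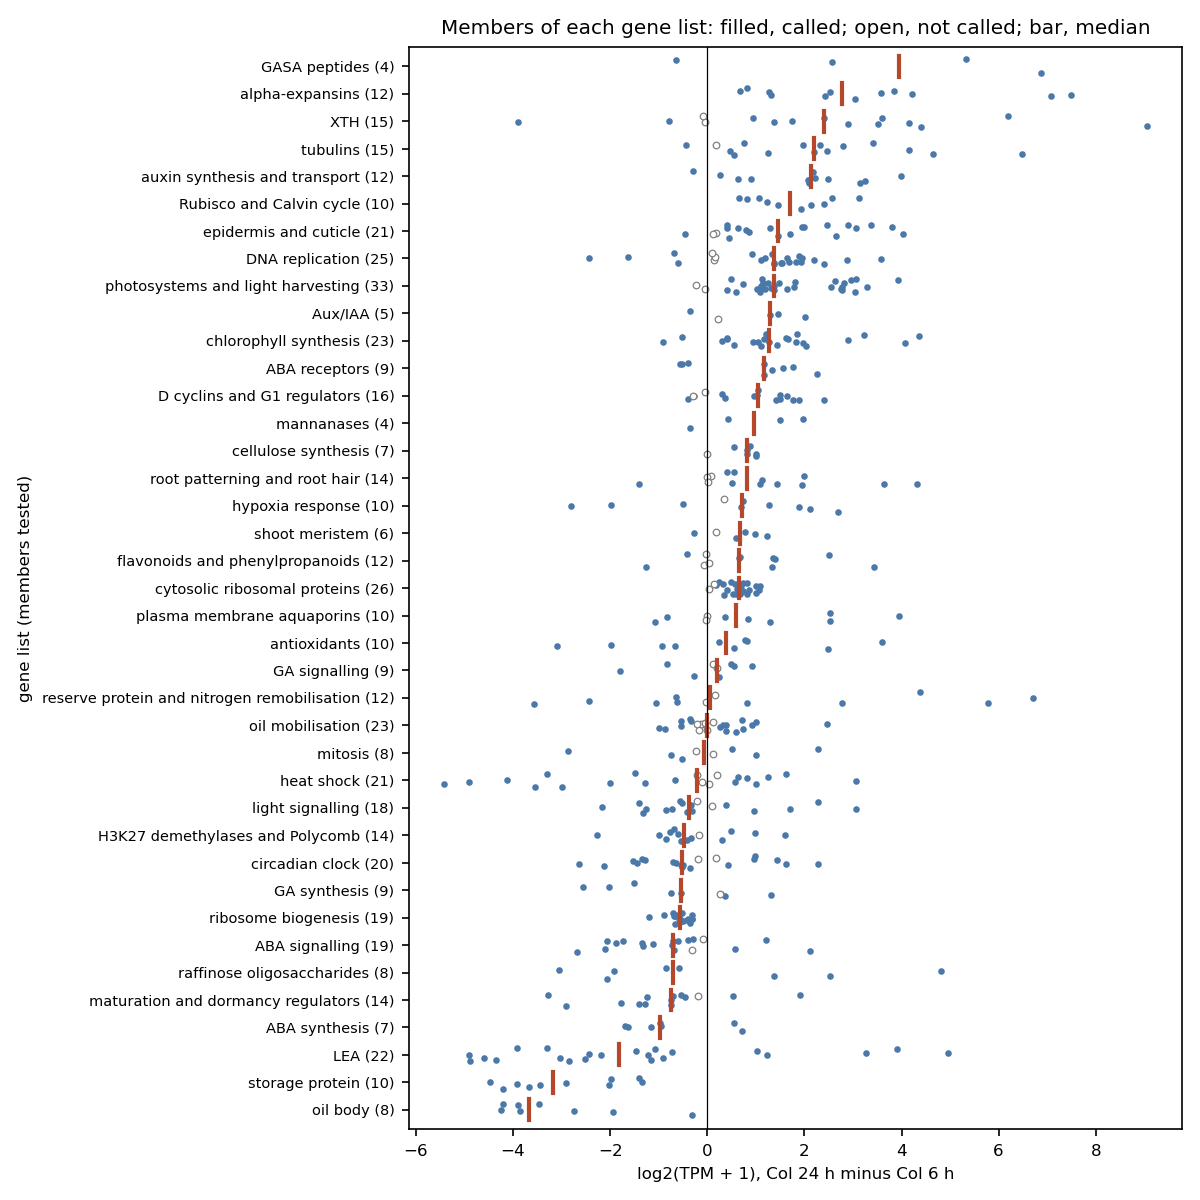
Each point is a member of a gene list by its log2 difference, Col 24 h minus Col 6 h, with filled points called and open points not called, and the red bar is the median of the list. Lists run from oil body, with a median of -3.66, to GASA peptides, with a median of 3.95, and the number of members tested stands in brackets.

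Transcripts of the reserves themselves fell. All 10 genes of the storage protein list fell by at least 2-fold, and their summed TPM was 1.04 ± 0.172% of the library at 24 h and 5.81 ± 0.436% at 6 h. The list holds the 12S globulins, or cruciferins, and the 2S albumins that fill the protein bodies of the seed. SESA3, a 2S albumin, had 1652, 1005 and 1447 TPM in Col 24 h, against 13723, 15869 and 13974 TPM in Col 6 h and fell by 3.43 on the log2 scale (SE 0.22, adjusted p = 1.16e-12). CRA1, a cruciferin, had 2586, 4436 and 4961 TPM in Col 24 h, against 8560.1, 9969.9 and 10675 TPM in Col 6 h, so that it was still abundant at 24 h, and fell by 1.33 (SE 0.22, adjusted p = 7.89e-06). The other members ran from -1.40 for SESA2 to -4.47 for the cupin gene AT1G03890. SESA1 to SESA4 are similar neighbours, so their counts may be split differently.

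All 8 tested genes of the oil body list fell, 7 of them by at least 2-fold, with a median log2 difference of -3.66. OLEO1, the main oleosin that coats oil bodies, had 321, 390.4 and 486 TPM in Col 24 h, against 7324, 7834 and 7387 TPM in Col 6 h. The highest 24 h library lay far below the lowest 6 h library, and OLEO1 fell by 4.25 (SE 0.19, adjusted p = 1.34e-15). OLEO4, OLEO2 and CLO1, a caleosin of the oil body surface, fell by 4.20, 3.47 and 3.89. OLEO3 changed least, with 53.5, 66.1 and 68.9 TPM in Col 24 h, against 66.6, 90.9 and 78.6 TPM in Col 6 h, and its fall of 0.32 lost its call without Col 24 h replicate 1, Col 6 h replicate 2 or Col 6 h replicate 3 (adjusted p = 0.159, 0.159 and 0.0528). Summed TPM of the list was 0.106 ± 0.0250% of the library at 24 h and 1.17 ± 0.0543% at 6 h.

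LEA genes, which encode hydrophilic proteins that protect dry cells, went both ways: 17 of 22 fell and 5 rose. RAB18, a dehydrin induced by ABA, had 243, 360.2 and 450.0 TPM in Col 24 h, against 3067, 3574 and 3448 TPM in Col 6 h, and fell by 3.30 (SE 0.21, adjusted p = 9.68e-13). EM6 averaged 196 ± 61.9 TPM at 24 h and 1558 ± 111 TPM at 6 h, and EM1 averaged 203 ± 48.0 TPM at 24 h and 1136 ± 100.4 TPM at 6 h. LEA4-5 had 829, 1217 and 1214 TPM in Col 24 h, against 2184, 2713 and 2628 TPM in Col 6 h, a fall of 1.22. The 5 that rose were COR47, HIRD11, ERD10, SAG21 and ERD14, of which all but SAG21 are dehydrins known from cold and drought responses of vegetative tissue. COR47 had 101, 95.4 and 95.2 TPM in Col 24 h, against 2.35, 1.57 and 2.71 TPM in Col 6 h, and its groups did not overlap. ERD10 passed the filter only through the 24 h libraries. Markers of the mature embryo overlap these lists, and 5 of 5 fell: TIP3;1, a seed tonoplast aquaporin, OLEO1, EM1, CRC and CRA1.

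The plot of TPM by library shows OLEO1, SESA3 and RAB18 beside genes of the other roles.

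**Figure D3:**
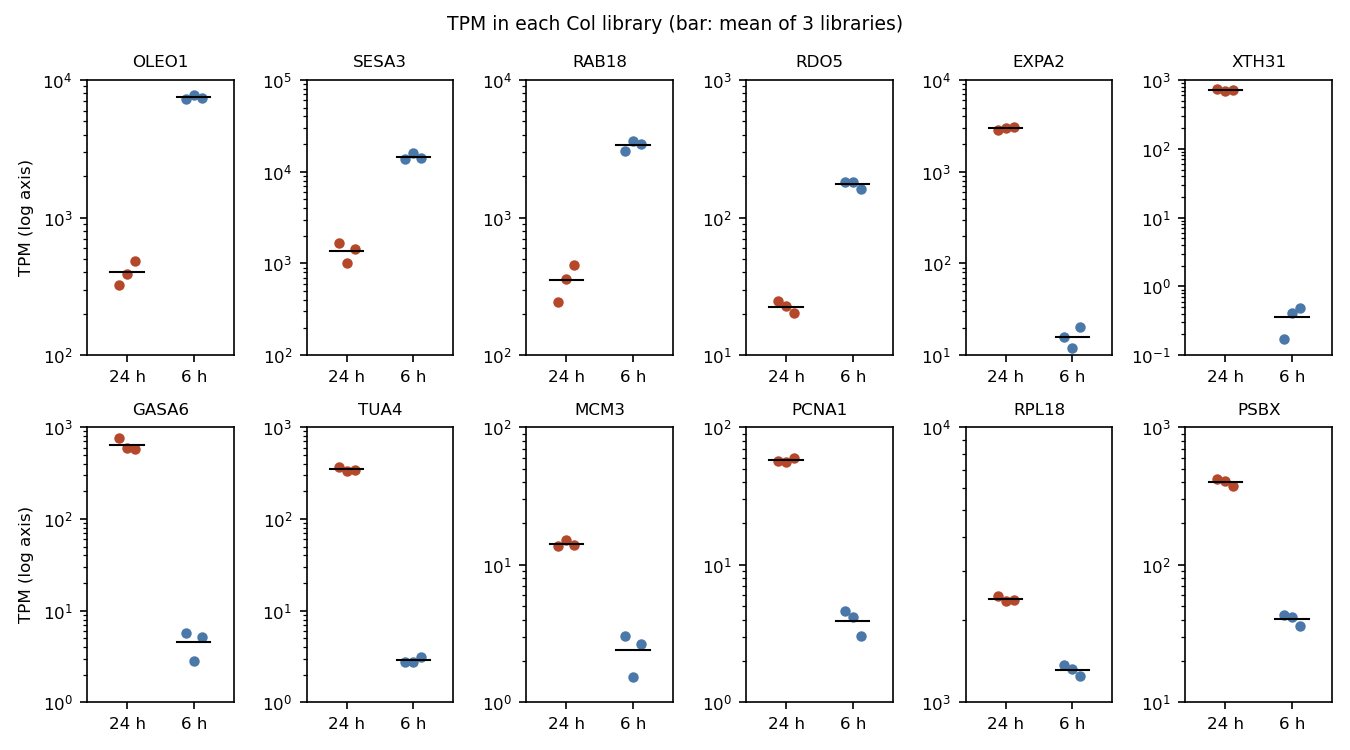
TPM (log axis, a scale of its own for each gene) of 12 genes in each of the 3 Col 24 h libraries (red, left) and the 3 Col 6 h libraries (blue, right), with the group mean as a black bar. No gene shown has overlapping groups: OLEO1, SESA3, RAB18 and RDO5 are lower at 24 h, and EXPA2, XTH31, GASA6, TUA4, MCM3, PCNA1, RPL18 and PSBX are higher.

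Promoter elements known from seed genes were counted in the lists. In the 250 bases before each annotated gene start, the RY element CATGCA, the binding site of the maturation factors ABI3 and FUS3, occurred on either strand in 9 of 10 storage protein genes (90%) and in 8 of 8 oil body genes (100%), against 7.15% of the promoters of 16506 tested genes. The ABA response element (ABRE) ACGTGTC occurred in 12 of 22 LEA genes (54.5%), in 4 of 8 oil body genes (50%) and in none of the 10 storage protein genes, against 4.71% of all. It also stood in 7 of 20 clock genes (35.0%) and in 5 of 33 genes of photosystems and light harvesting (15.2%), a list in which 31 rose. The variant ACGTGGC stood in 40% and 24.2% of these lists, in that order, against 4.23% of all. Stretches of 120 bases from RefSeq TAIR10.1 are printed 5′ to 3′ on the strand of the gene, with ABRE copies of EM6 and LEA4-5 and RY copies of CRA1, CRC and SESA3 in capitals. They are members of these lists that fell and hold such copies, and they were not chosen for the size of the fall.

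EM6: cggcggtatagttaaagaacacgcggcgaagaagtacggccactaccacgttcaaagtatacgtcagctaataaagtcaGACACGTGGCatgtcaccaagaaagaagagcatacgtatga
LEA4-5: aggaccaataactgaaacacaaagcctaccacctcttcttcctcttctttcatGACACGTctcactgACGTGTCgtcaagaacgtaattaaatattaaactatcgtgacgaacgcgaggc
CRA1: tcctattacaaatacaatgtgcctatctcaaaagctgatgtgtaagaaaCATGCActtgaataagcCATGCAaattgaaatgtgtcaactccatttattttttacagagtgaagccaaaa
CRC: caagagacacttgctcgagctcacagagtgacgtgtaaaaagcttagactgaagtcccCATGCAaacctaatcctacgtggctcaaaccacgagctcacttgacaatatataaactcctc
SESA3: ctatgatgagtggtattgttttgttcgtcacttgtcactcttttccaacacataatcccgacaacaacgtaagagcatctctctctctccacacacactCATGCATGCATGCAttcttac

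They lie at chr2:16780369-16780488 (minus strand), chr5:2090431-2090550 (minus), chr5:17758447-17758566 (minus), chr4:14087429-14087548 (plus) and chr4:13611610-13611729 (plus). In EM6 the capitals run together 2 overlapping copies, ACGTGTC on the opposite strand and the variant ACGTGGC on the strand printed. LEA4-5 has ACGTGTC on both strands within 67 bases of its start. Copies of CATGCA overlap those of the opposite strand in SESA3, where CATGCA repeats 3 times in a row, sharing letters. These are letters in a window, and no binding was measured.

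Genes grouped by size of change rather than by role showed part of the same pattern. Of the 163 genes with a promoter that fell at least 8-fold, 28.8% held CATGCA, against 12.1% of the 354 that rose at least 8-fold, and 21.5% held ACGTGTC, against 2.26%. Over all tested promoters the shares were 7.15% and 4.71%, so CATGCA was more frequent than that in both sets. Members of the storage protein, oil body and LEA lists are among these falls, so the shares are not separate from those above. The other motifs searched, on both strands, were CACGTG (G-box, whose copies can share letters with an ABRE), ACGTGGC (ABRE variant), TTCCCGC (E2F site), TGGGCC (site II), AAACCCT (telo-box), AAATATC (evening element), GATAAG (I-box), TAACAAA (gibberellin response element), AACGG (core of the mitosis-specific activator site) and TTCNNGAA (heat shock element). Over all 16506 promoters they occurred in 7.92%, 4.23%, 1.21%, 18.4%, 6.74%, 12.1%, 12.4%, 15.8%, 22.4% and 7.55%, in that order. The GA response element, known from cereal amylase promoters, was found in 16.7% of the genes that rose at least 8-fold, close to the 15.8% of all. It was found in 9.82% of those that fell at least 8-fold.

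**Figure D4:**
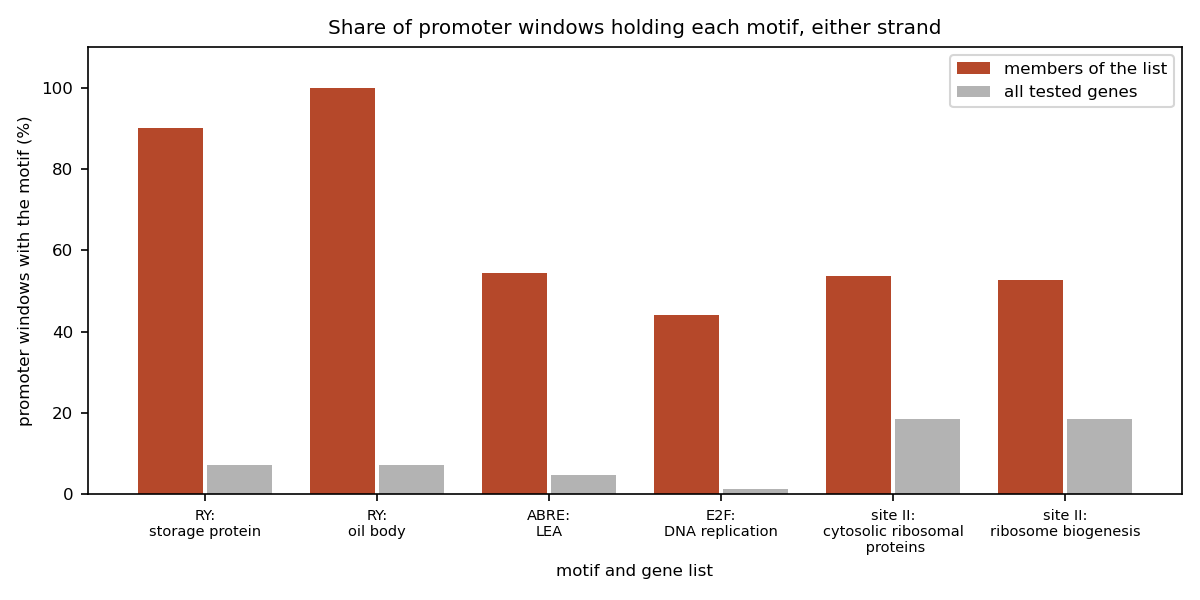
Share of promoter windows (250 bases before the gene start) that hold a motif on either strand, for 6 pairs of motif and gene list, with members of the list in red, left of all tested genes in grey. RY stands at 90% and 100% of storage protein and oil body genes, ABRE at 54.5% of LEA genes, E2F at 44.0% of DNA replication genes, and site II at 53.8% and 52.6% of the 2 ribosome lists.

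Most tested genes of the ABA signalling list fell, while 6 of 9 ABA receptors rose. The list also holds phosphatases, of a kind that restrains the pathway, so falls of its members are not a fall of the signalling. Of 19 tested genes of ABA signalling 14 fell and 3 rose, with 1 having passed only through the 24 h and 1 only through the 6 h libraries. ABI5, the bZIP factor that holds back germination, had 27.04, 40.7 and 39.3 TPM in Col 24 h, against 134, 156 and 161 TPM in Col 6 h and fell by 2.06 (SE 0.16, adjusted p = 3.53e-11). ABI3, its B3-domain partner in maturation, averaged 134 ± 8.06 TPM at 24 h and 343 ± 15.2 TPM at 6 h, and fell. Of the phosphatases that fell, HAI2 averaged 11.5 ± 1.59 TPM at 24 h and 79.1 ± 4.55 TPM at 6 h, and AHG1 averaged 43.3 ± 7.23 TPM at 24 h and 109 ± 4.60 TPM at 6 h. OST1, a kinase of the pathway best known from guard cells, rose by 1.22 ± 0.14, and ABF3, which passed the filter only through the 24 h libraries, rose by 2.12 ± 0.10. ABI4, an AP2 factor of the pathway, had 267, 264 and 261 TPM in Col 24 h, against 201, 179 and 157 TPM in Col 6 h, a rise of 0.56 ± 0.14. ABI1, a phosphatase that restrains the pathway, was not called, at 22.0 ± 6.06 TPM at 24 h and 23.4 ± 6.89 TPM at 6 h. Of the 9 receptors, 6 rose, all by at least 2-fold, and 3 fell. PYR1 had 587, 544 and 553 TPM in Col 24 h, against 258, 221 and 189.6 TPM in Col 6 h, PYL2 averaged 176 ± 26.7 TPM at 24 h and 58.8 ± 7.65 TPM at 6 h and PYL6 23.3 ± 4.998 TPM at 24 h and 4.14 ± 1.49 TPM at 6 h. PYL5, PYL7 and PYL9 fell by 0.52, 0.55 and 0.39.

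ABA metabolism changed member by member. CYP707A2, the ABA 8'-hydroxylase known for the removal of ABA early in imbibition, had 2.69, 4.11 and 4.71 TPM in Col 24 h, against 27.9, 30.1 and 30.1 TPM in Col 6 h. It fell by 2.67 (SE 0.14, adjusted p = 2.07e-14), while CYP707A1 and CYP707A3, other members of the family, rose by 1.11 ± 0.13 and 1.75 ± 0.14, to 2.51 ± 0.644 TPM at 24 h against 0.607 ± 0.141 TPM at 6 h, and to 6.74 ± 1.57 TPM at 24 h against 1.27 ± 0.150 TPM at 6 h. CYP707A1 passed the filter only through the 24 h libraries, and CYP707A4 did not pass it. In ABA synthesis 5 of 7 tested genes fell: ABA1, the zeaxanthin epoxidase, averaged 18.1 ± 3.67 TPM at 24 h and 60.4 ± 6.68 TPM at 6 h, NCED9, a dioxygenase of the committed step, 5.26 ± 3.82 TPM at 24 h and 11.2 ± 1.32 TPM at 6 h, and NCED5, which passed only through the 6 h libraries, 0.754 ± 0.173 TPM at 24 h and 4.49 ± 1.17 TPM at 6 h. Without Col 24 h replicate 3 the difference of NCED9 was -0.65 in place of -1.16. ABA2 and ABA4 rose by 0.55 ± 0.14 and 0.73 ± 0.11.

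Regulators of maturation and dormancy fell in 11 of 14 tested cases, 6 of them by at least 2-fold, and 3 of the 14 passed only through the 6 h libraries. RDO5, a phosphatase-like protein of seed dormancy, had 24.7, 22.6 and 20.1 TPM in Col 24 h, against 182, 180.2 and 162 TPM in Col 6 h and fell by 2.91 (SE 0.09, adjusted p = 1.06e-18). MFT, a phosphatidylethanolamine-binding protein that acts on ABA signalling in seeds, averaged 2.91 ± 0.359 TPM at 24 h and 36.8 ± 2.61 TPM at 6 h, and SOM, a zinc finger protein that holds back germination in the dark, 254 ± 38.3 TPM at 24 h and 867 ± 98.5 TPM at 6 h. DOG1, the dormancy gene of natural variation, was low in these after-ripened seeds, with 0.210, 0 and 0.221 TPM in Col 24 h, against 2.09, 2.22 and 1.71 TPM in Col 6 h. SPT, a bHLH factor, rose by 1.90 ± 0.12, to 47.0 ± 4.86 TPM at 24 h against 11.8 ± 1.32 TPM at 6 h.

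Of 9 tested genes of GA synthesis 5 fell and 3 rose, where 38.1% and 39.1% of all tested genes did. GA3OX1, the enzyme that makes bioactive GA, had 11.9, 9.24 and 8.02 TPM in Col 24 h, against 64.6, 65.2 and 55.0 TPM in Col 6 h and fell by 2.56 (SE 0.16, adjusted p = 5.51e-13). GA20OX3, which makes its precursor, averaged 62.7 ± 9.34 TPM at 24 h and 257 ± 11.3 TPM at 6 h, and the kaurene oxidase GA3 84.0 ± 1.92 TPM at 24 h and 242 ± 12.3 TPM at 6 h. GA3OX2 went the other way, with 139, 119 and 111 TPM in Col 24 h, against 56.6, 46.1 and 44.6 TPM in Col 6 h, a rise of 1.31 ± 0.11 (adjusted p = 7.84e-11). Of 9 genes of GA signalling 4 rose and 3 fell. The receptor GID1A averaged 30.6 ± 1.37 TPM at 24 h and 109 ± 4.61 TPM at 6 h and GID1C 7.90 ± 0.417 TPM at 24 h and 14.8 ± 0.767 TPM at 6 h. Of the DELLA proteins, which repress GA responses, RGL2 rose by 0.48 ± 0.10, RGA by 0.55 ± 0.10 and RGL1 by 0.92 ± 0.12. Of the 4 listed GASA peptides 3 rose and GASA1 fell. In this family of small secreted proteins, several of them induced by GA, GASA6 had 756, 592 and 583 TPM in Col 24 h, against 5.76, 2.86 and 5.15 TPM in Col 6 h, GASA4, which passed only through the 24 h libraries, rose by 5.32 ± 0.22 and GASA14 by 2.58 ± 0.09. GASA1 averaged 0.968 ± 0.683 TPM at 24 h and 1.95 ± 0.252 TPM at 6 h, and its difference of -0.64 ± 0.22 (adjusted p = 0.0106) was -0.35 and not called (adjusted p = 0.132) without Col 24 h replicate 2.

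Expansins loosen walls without cutting them. All 12 tested alpha-expansins of 19 listed rose, 10 by at least 2-fold, and 3 of them passed only through the 24 h libraries. Their summed TPM was 0.619 ± 0.0226% of the library at 24 h and 0.0594 ± 0.00771% at 6 h. EXPA1 had 1049.6, 924 and 865 TPM in Col 24 h, against 91.0, 69.0 and 75.9 TPM in Col 6 h, EXPA3 averaged 543 ± 8.21 TPM at 24 h and 93.7 ± 8.86 TPM at 6 h and EXPA10 667 ± 123 TPM at 24 h and 279 ± 60.4 TPM at 6 h. EXPA8 had 230.3, 150.4 and 132 TPM in Col 24 h, against 12.7, 9.91 and 9.69 TPM in Col 6 h, so that no library of one time reached the other. The 7 listed expansins not tested stayed under 1 TPM in at least 4 of the 6 libraries.

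Other wall enzymes followed with exceptions. Of 15 tested XTH genes 11 rose and 2 fell, 4 of the 15 having passed only through the 24 h libraries. XTH5 averaged 256 ± 10.7 TPM at 24 h and 13.5 ± 1.73 TPM at 6 h. Also among the rises, XTH9 averaged 92.8 ± 15.4 TPM at 24 h and 6.76 ± 0.935 TPM at 6 h, and XTH16 averaged 201 ± 8.30 TPM at 24 h and 37.2 ± 6.27 TPM at 6 h. XTH25 went against the list, with 3.64, 5.51 and 10.6 TPM in Col 24 h, against 88.5, 112 and 112 TPM in Col 6 h, a fall of 3.89 (SE 0.27). Of the endo-beta-mannanases, which degrade mannans of endosperm walls, MAN7 averaged 187 ± 32.0 TPM at 24 h and 46.3 ± 6.33 TPM at 6 h, MAN2 5.78 ± 0.163 TPM at 24 h and 1.46 ± 0.579 TPM at 6 h and MAN6 19.0 ± 0.883 TPM at 24 h and 14.01 ± 0.907 TPM at 6 h, while MAN5 fell by 0.36. Of 7 tested genes of cellulose synthesis 6 rose. The subunits of cellulose synthase in primary walls CESA1, CESA3 and CESA6 rose by 1.01 ± 0.16, 0.81 ± 0.15 and 0.82 ± 0.14, and CESA2 was not called (-0.01 ± 0.12). KOR1, an endoglucanase, and COB, a membrane-anchored wall protein, both needed for cellulose deposition, rose by 0.88 ± 0.13 and 1.01 ± 0.15. Tubulins, whose microtubules guide cellulose deposition, rose in 13 of 15 cases, of which TUB1 and TUB5 passed only through the 24 h libraries. TUA4 had 368, 331 and 342 TPM in Col 24 h, against 2.75, 2.78 and 3.14 TPM in Col 6 h, TUA6 averaged 1109 ± 42.6 TPM at 24 h and 159.9 ± 4.16 TPM at 6 h and TUB5 38.4 ± 4.65 TPM at 24 h and 0.563 ± 0.0691 TPM at 6 h. TUA1, known as the pollen alpha-tubulin, fell by 0.44. TUA2 and TUA4 encode the same protein, so reads may be split between them.

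Most genes of DNA replication rose, with the subunits of ribonucleotide reductase and a DNA ligase as exceptions. Of 25 tested replication genes of 27 listed 18 rose and 4 fell, and 4 of the 25 passed only through the 24 h libraries. MCM3, a subunit of the helicase that opens replication origins, had 13.7, 15.2 and 13.8 TPM in Col 24 h, against 3.04, 1.52 and 2.64 TPM in Col 6 h, with a rise of 2.19 ± 0.13 (adjusted p = 3.86e-13). MCM2, MCM4, MCM5, MCM6 and PRL, the MCM7 subunit, rose by between 1.54 and 2.87. PCNA1, the sliding clamp, had 56.6, 56.2 and 59.7 TPM in Col 24 h, against 4.61, 4.15 and 3.04 TPM in Col 6 h, and rose by 3.58 ± 0.11 (adjusted p = 4.46e-18). CDT1A, which loads MCM, averaged 11.2 ± 1.87 TPM at 24 h and 1.28 ± 0.194 TPM at 6 h, and the origin subunits ORC1B, ORC2 and ORC6 rose by 1.38 ± 0.13, 1.65 ± 0.11 and 1.38 ± 0.13. TSO2, the small subunit of ribonucleotide reductase that responds to DNA damage, went the other way with 208, 223 and 237 TPM in Col 24 h, against 1225, 1069.9 and 1333 TPM in Col 6 h. It fell by 2.43 (SE 0.08, adjusted p = 1.47e-17), as did RNR1, the large subunit, at 47.6 ± 2.72 TPM at 24 h and 149 ± 19.3 TPM at 6 h, RNR2A at 84.2 ± 1.86 TPM at 24 h and 136 ± 7.79 TPM at 6 h and the ligase LIG1 at 23.2 ± 1.59 TPM at 24 h and 35.8 ± 3.09 TPM at 6 h. TSO2 took most of the summed TPM of the list at 6 h, and that sum was lower at 24 h, at 0.0624 ± 0.00189% of the library at 24 h and 0.159 ± 0.0152% at 6 h, although most members rose.

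E2F sites, TTCCCGC, stood in 11 of 25 promoters of the replication list (44.0%), against 1.21% of all tested promoters. By size of change, they stood in 1.37% of promoters of genes higher by at least 2-fold and in 1.45% of those lower. The 3 promoters printed here belong to members of the list that rose, and the site is in capitals.

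MCM2: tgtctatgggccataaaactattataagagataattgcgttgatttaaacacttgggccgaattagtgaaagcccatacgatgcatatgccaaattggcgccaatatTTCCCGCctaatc
MCM3: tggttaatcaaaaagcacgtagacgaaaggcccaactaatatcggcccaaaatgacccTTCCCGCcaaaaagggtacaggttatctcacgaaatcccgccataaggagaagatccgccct
CDT1A: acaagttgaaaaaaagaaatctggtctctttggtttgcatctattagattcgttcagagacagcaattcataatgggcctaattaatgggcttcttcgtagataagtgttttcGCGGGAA

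They lie at chr1:16970094-16970213 (plus strand), chr5:18773707-18773826 (minus) and chr2:13328742-13328861 (plus) in TAIR10.1. The site ends 7 bases before the start of MCM2, 56 before that of MCM3 and, on the opposite strand, at the last base before that of CDT1A. The site II element TGGGCC stood in 14 of the 25 (56.0%), against 18.4% of all. It stood in 13.2% of genes higher by at least 2-fold and in 15.2% of those lower.

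Most mitotic genes stayed under the filter. Of 24 listed 8 passed the filter, 3 of those rose and 3 fell, and 2 passed only through the 24 h and 1 only through the 6 h libraries. Of those not tested, CYCB1;2, CYCB1;3, CYCB1;4, CYCB2;1, CYCB2;2 and KN, the syntaxin of the cell plate, had at most 0.310 TPM in any of the 6 libraries. CYCB1;1 was the exception, with 3.76, 4.44 and 4.09 TPM in Col 24 h, against 32.8, 32.0 and 43.9 TPM in Col 6 h, and it fell by 2.86 (SE 0.14, adjusted p = 1.02e-14). CYCA2;3, an A-type cyclin that passed only through the 24 h libraries, rose to 4.23 ± 0.149 TPM at 24 h against 0.0806 ± 0.0456 TPM at 6 h. Of 16 tested D cyclins and G1 regulators 12 rose and 2 fell, with 3 having passed only through the 24 h libraries. CYCD3;1 averaged 7.98 ± 1.33 TPM at 24 h and 1.64 ± 0.411 TPM at 6 h, CYCD1;1, one of those 3, 8.01 ± 0.763 TPM at 24 h and 0.711 ± 0.251 TPM at 6 h and CYCD4;1 6.19 ± 0.593 TPM at 24 h and 1.57 ± 0.329 TPM at 6 h. E2FA, a transcription factor of S phase, rose by 1.05 ± 0.10, and the inhibitors KRP1 and KRP2 rose by 1.89 ± 0.15 and 1.64 ± 0.19.

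Genes of ribosome assembly and genes of ribosomal proteins moved in opposite directions. All 19 genes of ribosome biogenesis fell, although 1 by at least 2-fold, with a median of -0.56. NUC-L1, the nucleolin of the nucleolus, had 907, 936 and 889.8 TPM in Col 24 h, against 1713, 1580.0 and 1796 TPM in Col 6 h, a fall of 0.89 (SE 0.08, adjusted p = 1.50e-09). FIB1, a fibrillarin, averaged 411 ± 7.87 TPM at 24 h and 615 ± 30.9 TPM at 6 h, NOP56 515 ± 7.62 TPM at 24 h and 763 ± 46.9 TPM at 6 h and REIL2, a factor of late subunit maturation, 87.7 ± 2.72 TPM at 24 h and 203 ± 7.37 TPM at 6 h. Of 26 cytosolic ribosomal protein genes 24 rose and none fell, 4 of them by at least 2-fold, with a median of 0.66. RPL18 had 2443, 2346 and 2350.0 TPM in Col 24 h, against 1371, 1327 and 1245 TPM in Col 6 h, and rose by 0.86 ± 0.07 (adjusted p = 1.84e-10). RPS18A averaged 1224 ± 73.4 TPM at 24 h and 611 ± 51.4 TPM at 6 h, a rise close to 2-fold. RPS13A averaged 1593 ± 27.5 TPM at 24 h and 789.5 ± 47.1 TPM at 6 h, and RPL5A averaged 1826 ± 61.2 TPM at 24 h and 1094 ± 54.5 TPM at 6 h. Genes of this family have near-identical copies, so single members are uncertain. The site II element stood in 14 of 26 ribosomal protein promoters (53.8%) and in 10 of 19 of the biogenesis list (52.6%), so that lists moving in opposite directions held it at similar shares.

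Most photosynthesis genes rose. Of 33 tested members of the photosystems and light harvesting 31 rose, but 9 of the 33 passed only through the 24 h libraries. PSBX, a small subunit of photosystem II, had 424, 407 and 377 TPM in Col 24 h, against 43.3, 42.0 and 35.9 TPM in Col 6 h, a rise of 3.29 ± 0.13 (adjusted p = 2.13e-16). Other subunits rose too: PSBQA averaged 119 ± 19.0 TPM at 24 h and 18.2 ± 2.37 TPM at 6 h, PSBY averaged 145 ± 25.4 TPM at 24 h and 23.7 ± 2.05 TPM at 6 h, and LHCA4 averaged 84.2 ± 9.18 TPM at 24 h and 23.2 ± 1.37 TPM at 6 h. LHCB1.3, LHCB3, LHCB5 and LHCA1, antenna proteins that dominate green leaves, rose and stayed under 20 TPM on average at both times. LHCB1.3 averaged 16.8 ± 2.11 TPM at 24 h and 1.64 ± 0.136 TPM at 6 h, and LHCB3, which passed only through the 24 h libraries, averaged 8.91 ± 1.62 TPM at 24 h and 0.264 ± 0.117 TPM at 6 h. LHCB5 averaged 12.3 ± 3.03 TPM at 24 h and 0.847 ± 0.149 TPM at 6 h, and LHCA1 averaged 16.1 ± 3.60 TPM at 24 h and 1.04 ± 0.460 TPM at 6 h. The plastid genome itself took 1.66 ± 0.0275% of the library at 24 h and 0.516 ± 0.0488% at 6 h. All 10 genes of Rubisco and the Calvin cycle rose, 2 of them having passed only through the 24 h libraries, and among them were RBCS1A, a Rubisco small subunit, at 2404 ± 57.0 TPM at 24 h and 1032 ± 90.3 TPM at 6 h, and GAPA at 94.3 ± 1.97 TPM at 24 h and 20.8 ± 0.892 TPM at 6 h. Copies of RBCS and LHCB1 are near-identical, so their split is uncertain.

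Chlorophyll synthesis rose in 21 of 23 tested members and fell in 2, and 1 of the 23 passed only through the 24 h libraries. PORB, a protochlorophyllide oxidoreductase that needs light, had 67.3, 28.2 and 27.6 TPM in Col 24 h, against 0.981, 1.34 and 1.58 TPM in Col 6 h, PCB2, the divinyl reductase, averaged 34.9 ± 2.22 TPM at 24 h and 0.770 ± 0.309 TPM at 6 h and CHLI1, a subunit of magnesium chelatase, 214 ± 11.8 TPM at 24 h and 53.6 ± 4.48 TPM at 6 h. PORC rose by 3.23 ± 0.14. GNC, a GATA factor of greening, fell by 0.91, to 40.5 ± 0.866 TPM at 24 h against 77.0 ± 1.19 TPM at 6 h, whereas GLK1, another factor of chloroplast development, rose by 1.44 ± 0.13. Light signalling was mixed, with 5 rises and 11 falls among 18, 1 of the 18 having passed only through the 6 h libraries. PIF1, a bHLH factor that holds back germination in the dark, averaged 62.5 ± 1.20 TPM at 24 h and 152 ± 2.54 TPM at 6 h, and its relative PIF6 averaged 6.10 ± 2.08 TPM at 24 h and 29.9 ± 2.29 TPM at 6 h. HY5, a bZIP factor that promotes light responses, rose and averaged 50.9 ± 5.49 TPM at 24 h and 14.9 ± 0.814 TPM at 6 h. The phytochromes PHYA, PHYB, PHYD and PHYE fell by 0.56, 0.73, 1.41 and 1.33.

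Clock genes went both ways. LHY and CCA1, MYB factors that peak at dawn in seedlings, rose by 2.28 ± 0.10 and 1.61 ± 0.11, with 47.0, 52.9 and 55.9 TPM in Col 24 h, against 10.3, 10.5 and 8.85 TPM in Col 6 h for LHY. ELF4, FKF1, TOC1 and PRR5, which peak later in the day, fell by 2.63, 2.12, 1.28 and 1.52, with 52.7, 47.3 and 41.2 TPM in Col 24 h, against 311, 299 and 278 TPM in Col 6 h for ELF4. FKF1 and PRR5 passed the filter only through the 6 h libraries, so that they had to be lower at 24 h. Of 20 clock genes 6 rose and 12 fell, these 2 included. The hour of day of each collection is not in the labels, so time of imbibition and time of day cannot be told apart here.

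Genes of oil mobilisation changed in both directions, as did all tested genes, of which 39.1% were higher and 38.1% lower at 24 h. Of 23 tested genes 10 rose and 6 fell, with a median of 0.00, and PMDH2 alone changed by at least 2-fold, with a rise of 2.46 ± 0.09. ICL, isocitrate lyase of the glyoxylate cycle, had 9105, 9533 and 9824 TPM in Col 24 h, against 6938, 7503 and 7479 TPM in Col 6 h, a rise of 0.38 ± 0.11. MLS, malate synthase of the same cycle, averaged 3131 ± 195 TPM at 24 h and 4004 ± 278 TPM at 6 h, and PCK1, which leads carbon into sugar, 1879 ± 39.7 TPM at 24 h and 1879 ± 156 TPM at 6 h and was not called. SDP1, the lipase that starts the breakdown of oil, fell by 0.54. Of 12 genes of reserve protein and nitrogen remobilisation 5 rose and 5 fell, and 1 of the 12 passed only through the 6 h libraries. CP1 rose as above, and RD21A and AALP rose by 4.38 ± 0.20 and 2.78 ± 0.13. DELTA-VPE, a vacuolar processing enzyme, had 213, 219.8 and 234 TPM in Col 24 h, against 3.06, 2.26 and 4.14 TPM in Col 6 h, whereas BETA-VPE and ALPHA-VPE fell by 1.06 and 2.42. ASN1, asparagine synthetase, had 2.14, 4.30 and 4.65 TPM in Col 24 h, against 45.5, 54.1 and 60.8 TPM in Col 6 h, and fell by 3.57 (SE 0.19). Of 8 tested genes of raffinose family sugars 3 rose and 5 fell. GOLS1, a galactinol synthase, fell to 38.4 ± 12.3 TPM at 24 h against 158 ± 7.44 TPM at 6 h, and the stachyose synthase STS, which passed only through the 6 h libraries, to 0.482 ± 0.285 TPM at 24 h against 11.5 ± 3.73 TPM at 6 h. AGAL2, an alpha-galactosidase that breaks these sugars down and passed the filter only through the 24 h libraries, rose to 28.5 ± 6.06 TPM at 24 h against 0.0404 ± 0.0699 TPM at 6 h.

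Stress responses split by member, as did all tested genes, of which 39.1% were higher and 38.1% lower at 24 h. Of 21 heat shock genes 10 fell and 7 rose: small heat shock proteins such as HSP17.4, with 29.3, 35.7 and 41.3 TPM in Col 24 h, against 1059, 1096 and 1086 TPM in Col 6 h, fell, while the factor HSFA7B rose by 1.25 ± 0.15. Of 10 tested genes of the response to low oxygen 6 rose and 3 fell. ADH1 and PDC2 of ethanol fermentation fell, ADH1 to 42.4 ± 2.91 TPM at 24 h against 171 ± 8.72 TPM at 6 h, and PDC2 to 10.8 ± 0.391 TPM at 24 h against 81.6 ± 8.94 TPM at 6 h. LBD41, a transcriptional regulator induced by hypoxia, had 527, 428 and 229.8 TPM in Col 24 h, against 199.5, 28.9 and 31.4 TPM in Col 6 h, a rise of 2.69 ± 0.46 (adjusted p = 1.39e-05). HRA1, another such regulator, had 213, 204 and 100.2 TPM in Col 24 h, against 143, 23.1 and 24.1 TPM in Col 6 h, a rise of 1.89 ± 0.46 (adjusted p = 6.91e-04), in which the first 6 h library lay above the third 24 h library. Of 10 tested antioxidant genes 6 rose and 4 fell. All 3 catalases fell, CAT3 to 123 ± 20.2 TPM at 24 h against 1046 ± 40.7 TPM at 6 h, and CAT2 to 2462 ± 226 TPM at 24 h against 4698 ± 296 TPM at 6 h, and CAT1 by 0.66. PER1, the peroxiredoxin of dry seeds, fell to 252 ± 89.0 TPM at 24 h against 965 ± 117 TPM at 6 h. APX1, a cytosolic ascorbate peroxidase, rose to 113 ± 7.50 TPM at 24 h against 19.4 ± 0.265 TPM at 6 h. The superoxide dismutases MSD1, CSD1 and CSD2 rose by 0.55 ± 0.06, 0.78 ± 0.08 and 0.82 ± 0.08, and FSD1, which passed only through the 24 h libraries, by 3.59 ± 0.18. The ascorbate peroxidase APX6 rose by 0.24 ± 0.08. Of the aquaporins of protein storage vacuoles, TIP3;1 fell to 68.3 ± 25.8 TPM at 24 h against 1329 ± 156 TPM at 6 h, and BETA-TIP to 23.98 ± 10.5 TPM at 24 h against 502 ± 31.0 TPM at 6 h. Plasma membrane aquaporins rose in 6 of 10 cases, 1 of which passed only through the 24 h libraries, and fell in 2, with PIP2;8 at 39.3 ± 4.996 TPM at 24 h and 1.62 ± 0.574 TPM at 6 h.

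Most tested genes of auxin, the root and the epidermis rose, but the filter left part of each list no other direction. Of 12 tested genes of auxin synthesis and transport 11 rose, 4 of them having passed only through the 24 h libraries: the influx carrier AUX1 had 29.7, 28.6 and 30.0 TPM in Col 24 h, against 2.36, 2.21 and 2.09 TPM in Col 6 h, the root efflux carrier PIN2 averaged 24.04 ± 1.38 TPM at 24 h and 1.84 ± 0.231 TPM at 6 h, PIN3 22.8 ± 0.422 TPM at 24 h and 3.26 ± 0.331 TPM at 6 h and LAX2, one of those 4, 21.7 ± 1.26 TPM at 24 h and 0.453 ± 0.305 TPM at 6 h. Of 14 tested root genes 10 rose and 1 fell. Of the 14, 6 passed only through the 24 h libraries and so had to be higher, with WER, GL2 and SHR, given next, among them. Of the genes that set the non-hair fate of root epidermal cells, WER averaged 22.8 ± 4.12 TPM at 24 h and 0.179 ± 0.0906 TPM at 6 h, and GL2 averaged 5.91 ± 0.819 TPM at 24 h and 0.738 ± 0.0178 TPM at 6 h. SHR, a GRAS factor that moves from the stele, averaged 17.7 ± 0.795 TPM at 24 h and 0.498 ± 0.182 TPM at 6 h, while its partner SCR was not called, at 32.5 ± 3.87 TPM at 24 h and 31.8 ± 2.40 TPM at 6 h. PLT3, an AP2 factor of the root stem cell niche, fell by 1.41, and PLT1 rose by 0.41 ± 0.12. Cuticle and epidermal genes rose in 18 of 21 tested cases and fell in 1, 5 of them having passed only through the 24 h libraries. PDF1, a marker of the outer cell layer, had 573, 459 and 449 TPM in Col 24 h, against 23.8, 34.2 and 30.3 TPM in Col 6 h, a rise of 4.03 ± 0.20. LTP1, a lipid transfer protein, averaged 74.4 ± 29.7 TPM at 24 h and 8.65 ± 0.276 TPM at 6 h and BDG1, of cutin formation, 17.0 ± 3.47 TPM at 24 h and 0.278 ± 0.0514 TPM at 6 h. Of 6 tested genes of the shoot meristem list 4 rose and 1 fell, and STM rose by 0.59 ± 0.09 and CLV3 by 1.23 ± 0.21, to 2.17 ± 0.360 TPM at 24 h against 1.10 ± 0.1002 TPM at 6 h, for STM.

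Endosperm markers moved in both directions. EPR1, an extensin-like gene of the micropylar endosperm, had 804, 863 and 692 TPM in Col 24 h, against 3594, 3926 and 6104 TPM in Col 6 h and fell by 2.49 (SE 0.26, adjusted p = 1.05e-08), while MAN7 and EXPA2 rose as given above. ZOU, which marks the endosperm of developing seeds, and BAN, of the developing seed coat, were listed at 0 in all 6 libraries. NCED6, another endosperm marker, was not tested, at a mean of 0.101 TPM at 24 h and 1.17 TPM at 6 h. Of 4 listed seed coat markers 1 was tested, and it rose by 1.43, having passed only through the 24 h libraries. The seed coat markers summed to 2.50 ± 0.511 TPM at 24 h and 0.430 ± 0.1035 TPM at 6 h. Pollen markers summed to under 1 TPM in each library. How far a change in the share of endosperm RNA enters the values above was not tested.

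REF6, the H3K27 demethylase that the mutant of the series lacks, averaged 23.4 ± 2.87 TPM at 24 h and 35.8 ± 3.67 TPM at 6 h and fell by 0.59 (SE 0.12, adjusted p = 1.40e-04). Its relative ELF6 fell by 0.67 and JMJ30, another JmjC protein with daily rhythm, by 2.28. Of 14 genes of H3K27 demethylases and Polycomb 9 fell and 4 rose. CLF, a methyltransferase that sets the mark, had 10.2, 10.6 and 10.3 TPM in Col 24 h, against 3.20, 2.59 and 2.44 TPM in Col 6 h, a rise of 1.61 ± 0.11 (adjusted p = 5.14e-12), whereas its relative SWN fell by 0.86. EMF1 and LHP1 fell by 1.00 and 0.76. Flavonoid and phenylpropanoid genes rose in 7 of 12 tested cases and fell in 2. Of the 12, 1 passed only through the 24 h and 1 only through the 6 h libraries. Among the rises, TT4, chalcone synthase, averaged 107 ± 8.59 TPM at 24 h and 18.1 ± 0.629 TPM at 6 h. FLS1, flavonol synthase, averaged 28.3 ± 6.39 TPM at 24 h and 1.73 ± 0.598 TPM at 6 h.

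Set in the whole course of Col, the lists reach their levels at 0, 6, 24 and 48 h along different paths. Storage protein transcripts took 17.1 ± 0.565%, 5.81 ± 0.436%, 1.04 ± 0.172% and 0.393 ± 0.0390% of the library at those times, a decline at each. LEA transcripts took 13.8 ± 0.155%, 2.40 ± 0.145%, 0.800 ± 0.128% and 1.93 ± 0.182%, and oil body transcripts 4.14 ± 0.0553%, 1.17 ± 0.0543%, 0.106 ± 0.0250% and 0.248 ± 0.0375%, so that both sums were higher at 48 h than at 24 h. Not every member followed its sum: OLEO1 averaged 399 ± 82.6 TPM at 24 h and 373 ± 59.1 TPM at 48 h. OLEO4 averaged 26.8 ± 7.09 and 15.4 ± 3.19 TPM at these times, and CLO1 7.94 ± 1.49 and 5.59 ± 0.582 TPM. The higher oil body sum at 48 h thus came from other members. The share of cytosolic ribosomal proteins, 0.129 ± 0.00660%, 2.40 ± 0.0853%, 3.80 ± 0.0777% and 2.51 ± 0.103%, and that of alpha-expansins, 0.00138 ± 0.000106%, 0.0594 ± 0.00771%, 0.619 ± 0.0226% and 0.317 ± 0.0349%, were highest at 24 h. Ribosome biogenesis, at 0.0387 ± 0.00143%, 0.655 ± 0.0303%, 0.428 ± 0.0111% and 0.204 ± 0.00684%, and DNA replication, at 0.00413 ± 0.000102%, 0.159 ± 0.0152%, 0.0624 ± 0.00189% and 0.0586 ± 0.00255%, were highest at 6 h. The DNA replication sum at 6 h was mostly TSO2, and most members of that list rose from 6 h to 24 h, as given above. Photosystems and light harvesting, at 0.0236 ± 0.00162%, 0.0650 ± 0.00229%, 0.194 ± 0.0171% and 1.51 ± 0.211%, had most of their rise still ahead at 24 h.

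**Figure D5:**
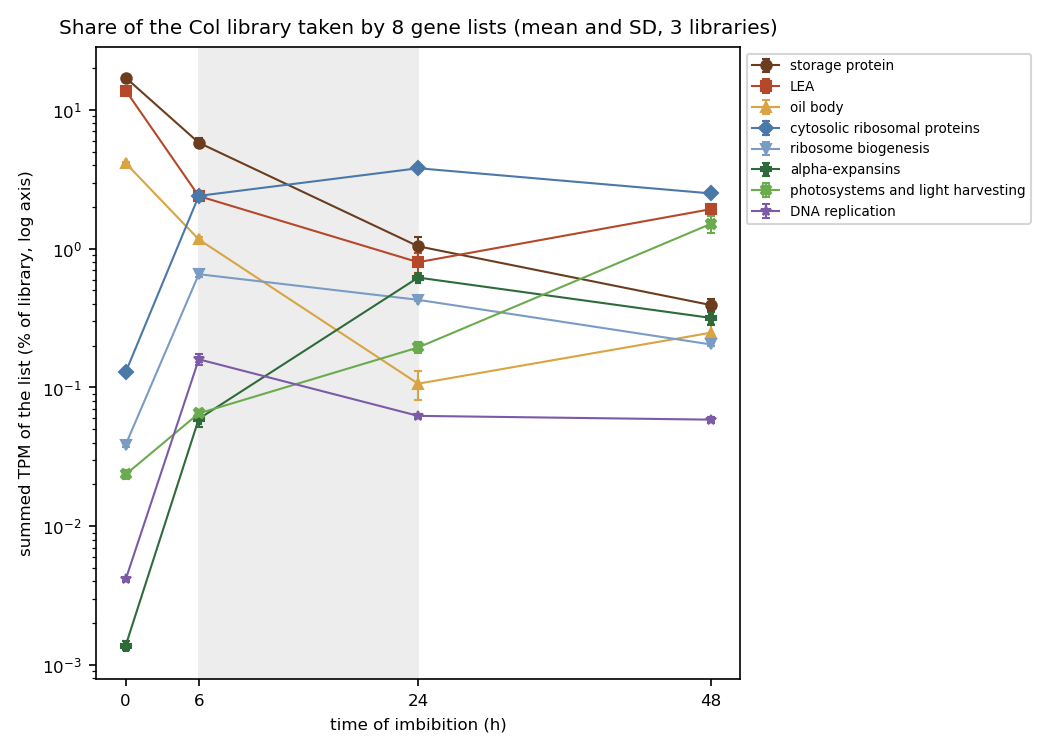
Summed TPM of 8 gene lists as a percentage of the library (log axis), mean and SD of 3 Col libraries at each of 0, 6, 24 and 48 h, with the step from 6 to 24 h shaded. Storage protein goes down throughout, alpha-expansins and cytosolic ribosomal proteins are highest at 24 h, and LEA and oil body are higher at 48 h than at 24 h.

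The same step was tested in ref6c, and the difference of the steps, ref6c minus Col, was called for 2822 genes (17.0%), with 1097 (6.59%) higher and 1725 (10.4%) lower in the ref6c step. Among the oil body genes 7 of 8 differed, among the LEA genes 13 of 22, and among photosystems and light harvesting 23 of 33, while 3 of 10 storage protein genes, 4 of 19 of ribosome biogenesis and 3 of 26 ribosomal protein genes did. OLEO1 averaged 1280.0 ± 584 TPM at 24 h and 9853 ± 351 TPM at 6 h in ref6c, and its log2 step of -3.03 in ref6c against -4.25 in Col gave a difference of 1.22 ± 0.26 (adjusted p = 0.00203). EXPA2 averaged 2711 ± 135 TPM at 24 h and 3.41 ± 0.528 TPM at 6 h in ref6c, a step of 9.27 against 7.49 in Col. GA3OX2 changed in opposite directions, with 35.6 ± 5.50 TPM at 24 h and 126 ± 14.1 TPM at 6 h in ref6c, a step of -1.80 against 1.31 in Col, and a difference of -3.11 ± 0.15 (adjusted p = 4.49e-12).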

How the data were processed

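Whole seeds were profiled by RNA sequencing, and the 3 Col 24 h and 3 Col 6 h libraries were compared. Per the labels' protocols, RNA came from a Takara kit and was made into BGISEQ-500 libraries. Levels were deposited as TPM, in 1 table for the whole series. DESeq2 1.26.0, HISAT2 2.1.10, fastp 0.20.1 and the build TAIR10 are listed in the submitters' processing notes, while the read counter and its strand setting are not given in the sources used here. TPM multiplied by the gene span of RefSeq TAIR10.1 gave whole reads, within 0.001 reads, for 99.97% of 462321 values above 0, so the values were divided by the whole gene span. Without a stated strand, reads of a gene and of one that overlaps it cannot be told apart.

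Values were tested as log2(TPM + 1), and with this pseudocount of 1 the change of a gene near 0 TPM comes out too small. The limma 3.58.1 package of R 4.3.3 fitted all 24 libraries with a mean for each of the 8 groups, which leaves 16 residual degrees of freedom, and let the prior variance follow the mean level. Tests were two-sided, with Benjamini-Hochberg adjustment over the 16640 genes and a threshold of 0.05. On simulated data with 200 changed genes among 16484, 91% of 67 genes at 1.5-fold, 97.1% of 69 at 2-fold and 98.4% of 64 at 4-fold were called, and 16 calls, 7.73% of all, were false. The changed genes were drawn without the low ones, and every gene was given the same relative spread between libraries. Far fewer genes changed there than were called here, so these rates do not carry over to this comparison or its low genes. Tables, promoters and plots were made in Python 3.11.15 with pandas 2.3.3, numpy 2.4.6 and matplotlib 3.10.9.

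The genes and lists were chosen with earlier results of these data known. The 46 lists, 4 of them of cell type markers, hold 680 entries for 671 loci, written from general knowledge, of which 548 were tested, and 2 further entries were left out because the reference gives their symbol to another locus. Named were, of called genes that have a symbol, average 5 TPM or more at one of the times and do not overlap between the times, those with the 15 largest rises and the 15 largest falls, up to 4 members per list with the smallest adjusted p, and REF6, ELF6 and the CYP707A genes. Other list members were named after their values were seen, to account for the counts. Promoters were the 250 bases before each gene start. The alternatives are given in the closing section. Some genes that were looked up are not reported here.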

Additional observations from a re-analysis of the deposited data

Results flagged for a closer look

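The change between 6 h and 24 h differed between ref6c and Col for 2822 of the 16640 genes at an adjusted p under 0.05 from limma, and 102 genes named in the text are among them. Values in brackets below are the log2 step of ref6c minus that of Col, so that a positive one means that the step was more positive in ref6c. The adjusted p of these genes reached at most 0.0472, and no cause was tested.

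The steps of 3 of 10 storage protein genes, 7 of 8 oil body genes and 13 of 22 LEA genes differed. Among those named, the step was more positive in ref6c for CRA1 (1.45), CRC (1.47), OLEO1 (1.22), OLEO2 (1.31), OLEO3 (1.18), OLEO4 (1.22), CLO1 (0.80), EM1 (1.49), EM6 (1.98), ECP31 (1.47), RAB18 (1.34) and LEA4-5 (1.22). The step of Col was a fall for each of them. OLEO3 went against its fall in Col, as its ref6c step was 0.86. The step was also more positive in ref6c for the aquaporins of storage vacuoles and the seed peroxiredoxin, TIP3;1 (1.06), BETA-TIP (1.70) and PER1 (1.53), and for genes of ABA and dormancy, ABI5 (0.88), AHG1 (0.88), HAI2 (0.95), ABA1 (0.76), CYP707A2 (0.98), CYP707A1 (0.93), RDO5 (0.80) and SOM (0.69). Other genes that fell in Col and had a more positive step in ref6c were FD4 (1.40), WOX2 (0.84), ATL15 (0.80), CYP71B26 (0.53), ASN1 (0.82), BETA-VPE (0.60), JMJ30 (0.64), PIF6 (0.98) and GMI1 (0.79). Among genes that rose in Col, LTP1 (1.04), PDF1 (0.82), TT4 (0.72), HSFA7B (1.28) and RPS13A (0.32) had the more positive step in ref6c.

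Of the genes of photosynthesis and greening named, the step was less positive in ref6c for PORB (-2.45), PORC (-0.75), PCB2 (-0.64), CHLI1 (-0.60), GNC (-0.70), LHCA1 (-1.75), LHCA4 (-0.84), LHCB3 (-0.85), LHCB5 (-1.76), PSBQA (-1.39), PSBY (-1.31) and GAPA (-0.63). Wall, tubulin and surface genes went both ways, with a more positive step for EXPA2 (1.78), EXPA3 (0.44) and MAN7 (0.99) and a less positive one for EXPA8 (-1.52), EXPA9 (-0.89), EXPA10 (-0.90), XTH5 (-0.54), XTH9 (-1.95), XTH16 (-0.74), PMEPCRA (-1.53), ELP (-1.34), AGP31 (-0.43), COB (-0.92), KOR1 (-0.62), TUA4 (-0.60), TUB1 (-0.65), TUB5 (-0.54) and BDG1 (-1.09). Other genes of ABA had a less positive step, PYL2 (-1.14), PYL5 (-0.45), PYL6 (-2.62), PYR1 (-0.50), ABF3 (-0.87), ABI4 (-0.85), OST1 (-0.66) and CYP707A3 (-1.12). Genes of GA also went both ways, with a more positive step for GA20OX3 (1.26) and RGL2 (0.76) and a less positive one for GA3OX1 (-2.53), GA3OX2 (-3.11), GASA4 (-2.74) and RGL1 (-0.81). GA3OX2, PYL6 and ABI4 had steps of -1.80, -0.36 and -0.28 in ref6c, against 1.31, 2.26 and 0.56 in Col. For proteases, transport and metabolism the values were CP1 (-1.73), RD21A (-1.35), AGAL2 (-1.99), PIP2;8 (-1.55), GSTF6 (-1.51), JAL34 (-0.89), APX1 (-0.91), FSD1 (-1.004), ADH1 (-0.60), PMDH2 (-0.54) and SDP1 (-0.47). For development, the cell cycle and the clock they were PCNA1 (-0.66), ORC2 (-0.43), RNR2A (-0.35), CYCA2;3 (-0.65), AUX1 (-0.46), PIN2 (-0.92), SHR (-0.44), SPT (-0.73), CCA1 (-0.73) and LHY (-0.51).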

How the results depend on the processing

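The counts of genes called, called higher and called lower stayed within 1.5 times of 12840, 6508 and 6332 under each filter, scaling and fit tried, at 10656 to 14287, 5161 to 7401 and 5495 to 6962, and no gene called both ways was called in opposite directions. A minimum of 2-fold left 4651, 2949 and 1702 genes and cut the difference of the steps to 695. Leaving out 1 Col library at a time gave 12201 to 12524, 6257 to 6357 and 5844 to 6228 genes, and leaving out 1 Col or ref6c library gave 2165 to 2827 for the difference of the steps, the ref6c libraries having been added after seeing the data. A pseudocount of 0.1 lowered that difference to 1771 genes, and the cause was not tested. In a fit to the recovered reads by limma with voom weights, 6191 genes were higher and 6896 lower, and low genes changed more than on log2(TPM + 1). Deviations of libraries with the same replicate number correlated at 0.354, -0.0611 and 0.284 between 24 h and 6 h. Those of unlike numbers correlated at -0.355 to 0.107. The labels do not say that a number marks a shared seed batch, so the main fit did not pair the libraries. A replicate block gave 12835 calls, 6512 higher and 6323 lower, with 2896 for the difference of the steps. Of the 241 genes named, OLEO3 lost its call under median-of-ratios scaling and without each of 3 libraries. GASA1 lost it under that scaling, at a pseudocount of 0.1 and without 1 library, and APX6 after rescaling without organelle and reserve genes. The others stayed called or not called wherever they were tested, and the called ones kept their direction. A minimum of 2-fold took the call from 44 of the 241. List medians changed sign for ABA catabolism (-0.46) and Aux/IAA (-0.067) at a filter of 5 TPM, where fewer members were tested, and for nitrogen remobilisation (-0.028) after rescaling without organelle and reserve genes. The filter of 5 TPM left 11 rises in DNA replication and 0 in mitosis. Depth limits the genes near 1 TPM.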

Other observations

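Families named by the product in the reference annotation gave a further view. Of 62 product names shared by at least 20 tested genes, the 4 with the lowest and the 4 with the highest medians are given. Lowest were the transducin or WD-40 repeat proteins, with 14 of 23 lower at 24 h (60.9%) and 3 higher, and a median log2 difference of -0.487. The larger name Transducin/WD40 repeat-like, not among the 4 lowest, had 53 of 101 lower (52.5%) and 23 higher, with a median of -0.267. Pentatricopeptide repeat (PPR) proteins, RNA-binding proteins that process transcripts in plastids and mitochondria, were lower at 24 h in 118 of 178 tested cases (66.3%) and higher in 14 (7.87%), with a median log2 difference of -0.459, against 38.1% lower and 39.1% higher among all tested genes. A second name of the same family, PPR-like, had 26 of 34 lower (76.5%) and 1 higher, and DEA(D/H)-box RNA helicases had 15 of 20 lower (75%) and 1 higher. The mitochondrial genome took 0.0492 ± 0.0109% of the library at 24 h and 0.139 ± 0.0117% at 6 h, while the plastid genome took 1.66 ± 0.0275% and 0.516 ± 0.0488%.

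The highest median, 1.99, was that of the GDSL lipases, many of which act on the cuticle, with 21 of 27 tested genes higher (77.8%) and 2 lower. SAUR-like auxin-responsive proteins were higher in 14 of 25 cases (56%) and lower in 10 (40%), with a median of 1.43. Cysteine/histidine-rich C1 domain proteins were higher in 15 of 20 cases (75%) and lower in 3, with a median of 1.34, and pectin lyase-like proteins in 21 of 30 (70%) and lower in 4, with a median of 0.920. These families were picked for their medians, so the counts describe them and test nothing.

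Genes of the response to DNA damage were looked up after the falls of TSO2 and CYCB1;1 had been seen. Those described here were picked because they fell, so their number says nothing about the response as a whole, and 38.1% of all tested genes were lower at 24 h. AT4G02390, a poly(ADP-ribose) polymerase, an enzyme activated by broken DNA, had 7.45, 8.59 and 8.87 TPM in Col 24 h, against 35.7, 32.2 and 45.5 TPM in Col 6 h, and another gene of the family, AT2G31320, averaged 6.42 ± 0.852 TPM at 24 h and 15.3 ± 2.98 TPM at 6 h. GMI1 and XRI1, genes induced by ionising radiation, averaged 2.46 ± 0.573 TPM at 24 h and 16.6 ± 4.62 TPM at 6 h, and 17.1 ± 1.48 TPM at 24 h and 108 ± 12.3 TPM at 6 h, in that order. AT3G27630, whose product is annotated as a cyclin-dependent kinase inhibitor, had 9.09, 6.93 and 10.6 TPM in Col 24 h, against 182, 147 and 160.3 TPM in Col 6 h, with a difference of -4.07 ± 0.17. SOG1, the NAC factor that drives this response, changed least, with 10.1, 10.8 and 9.39 TPM in Col 24 h, against 14.6, 13.2 and 13.2 TPM in Col 6 h and a difference of -0.40 ± 0.09 (adjusted p = 3.63e-04). TRFL10, TK1a, a thymidine kinase, SYN2, a cohesin subunit, and POLD4, a subunit of DNA polymerase delta, differed by -2.27 ± 0.11, -2.75 ± 0.10, -2.83 ± 0.14 and -2.13 ± 0.08. In Col TSO2 averaged 1.89 ± 0.288 TPM at 0 h and 219 ± 11.4 TPM at 48 h, so that it was highest at 6 h of the 4 times.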
